A study of Mus musculus with 8 samples.

Results

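The enzymes that break down amino acids were followed here in the livers of mouse pups that lack glycerol kinase, the enzyme that phosphorylates glycerol to glycerol 3-phosphate. The list holds 37 genes, grouped by the amino acid they act on. Of these, 34 had a probe set named for them alone, and each gene is read from the probe set with the highest mean over the 8 arrays. Gls2, Sds and Sdsl were not analysed here. All 34 probe sets reached the level set for testing, 200 or more signal units on 4 or more arrays, as did 20395 of the 45101 on the array. The knockout group was 4 glycerol kinase knockout pups and the other group 4 wild-type littermates of the same age. By their labels all 8 were male, of the inbred strain C57BL/6J and sampled on day of life 3. The title gives a targeted disruption, and the labels used here name no allele. RNA of each liver went onto a separate Affymetrix Mouse 430 2.0 array, where a group of short probes, a probe set, reads a transcript. The study's design text says that the knockout pups are hypoglycaemic and acidotic at this age.

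Amino acids reach the liver from milk and from the turnover of muscle protein. Liver enzymes take off the nitrogen, by transfer to a keto acid or by direct release, and feed the carbon skeletons into glucose or ketone body synthesis. Several of these enzymes, above all the tyrosine aminotransferase Tat and the tryptophan dioxygenase Tdo2, which start the breakdown of their amino acid, are classic targets of glucocorticoids and glucagon and appear in rodent liver around and after birth. Whole liver was measured, so fewer cells of a type and less RNA per cell cannot be told apart.

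Signals are on a linear scale, and the mean after trimming 2% from each end was 500.0 on each array. A log2 difference is knockout minus wild type on log2(signal + 16), with the standard error (SE) of limma, a linear model fitted to every probe set. A probe set was called at a Benjamini-Hochberg adjusted p under 0.05 over all tested. The array labelled wild type 4 went against its label, with a signal of Xist, the RNA of the inactive X, of 10506 against 196 to 396 on the other arrays, and of the Y-linked Eif2s3y of 1.3. The spiked BioB control parted arrays 1 and 2 of both groups (141 to 167) from arrays 3 and 4 of both (258 to 338). Arrays 1 and 2 are named the first hybridisation set and arrays 3 and 4 the second, after this control, since the labels give no such sets. The ratio of 3' to 5' signal of pyruvate carboxylase, a sign of RNA quality, was 7.03 on knockout 1 and 4.93 on knockout 2, and 2.06 to 3.46 on the other 6 arrays.

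Most of the enzymes had higher signals in the knockout, but no single one passed the threshold. Of the 34, 29 had a log2 difference above 0, and the median was 0.40. Among all probe sets tested, 45.8% lay above 0, at a median of -0.03. By the amino acid broken down, the median was 0.55 for the 6 enzymes of methionine and homocysteine, 0.47 for the 6 of branched-chain amino acids and propionate, 0.41 for the 5 of tryptophan and 0.39 for the 4 of tyrosine. It was 0.35 for the 3 of alanine and aspartate, 0.28 for the 4 of histidine and 0.13 for the 3 of proline and ornithine. Limma called 0 of the 34 in either direction, where it called 0.147% of all probe sets higher and 0.152% lower, and the smallest adjusted p was 0.0674, for Tat. At an unadjusted p under 0.05, 17 of the 34 were higher and 1 was lower, beside 7.12% higher and 7.32% lower among all probe sets. All 4 knockout signals lay above all 4 wild-type signals for 6 members (Tat, Tdo2, Cbs, Cth, Ivd and Aldh6a1) and below them for 0, beside 4.47% and 4.85% of all probe sets. For 17 others, 3 of the 4 knockout arrays lay above the highest wild-type array, beside 6.98% of all probe sets. Without knockout 1 the median was 0.26, with 13 higher and 1 lower at an unadjusted p under 0.05, beside 5.69% and 5.65% of all probe sets. Without the array labelled wild type 4 the median was 0.44, with 16 and 1, beside 6.55% and 6.37%. Without knockout 4 limma called 5 members higher (Tat, Tdo2, Got1, Cbs and Cth) and 0 lower, beside 1.03% and 0.603% of all probe sets.

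**Figure D1:**
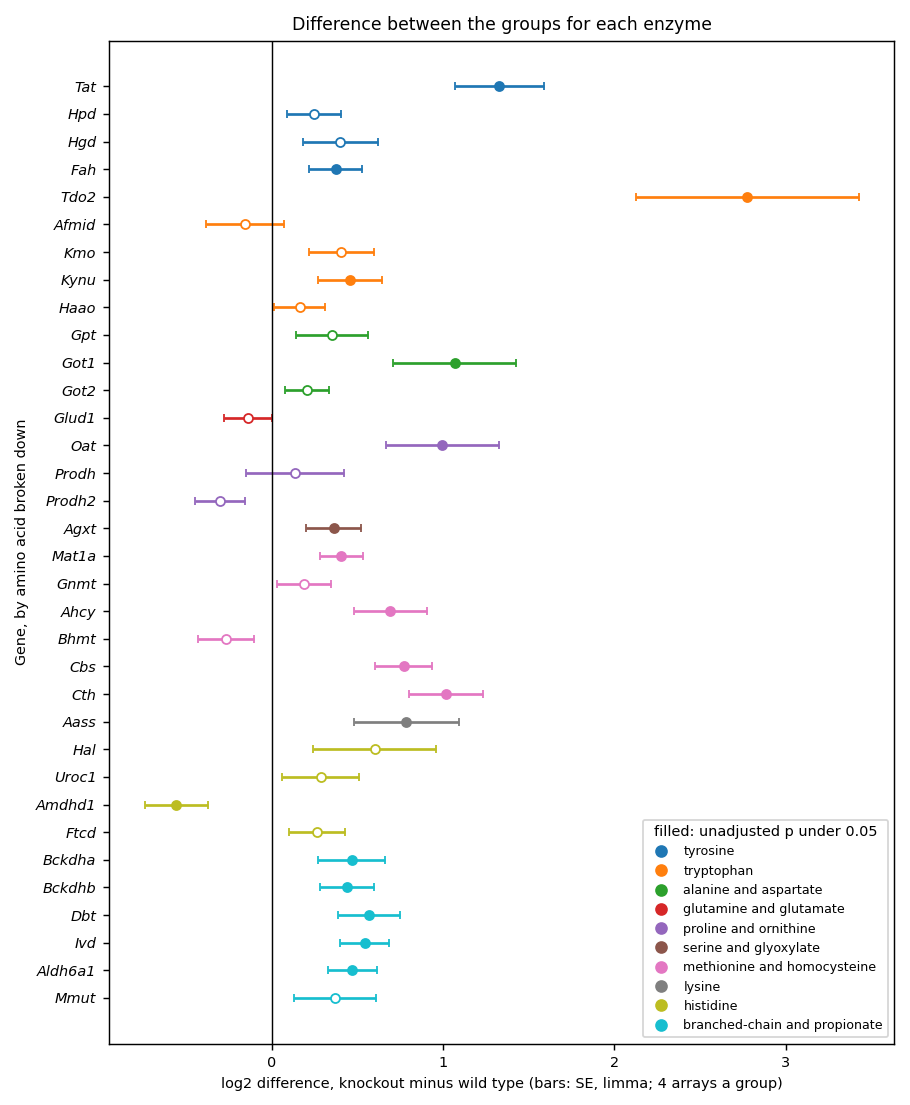
Log2 difference, knockout minus wild type, of the 34 enzymes on the horizontal axis, with limma's SE as bars (4 arrays a group), ordered and coloured by amino acid. Filled points had an unadjusted p under 0.05: 17 lie right of 0 and 1, Amdhd1, lies left of it, and Tdo2 stands farthest out at 2.78.

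**Figure D2:**
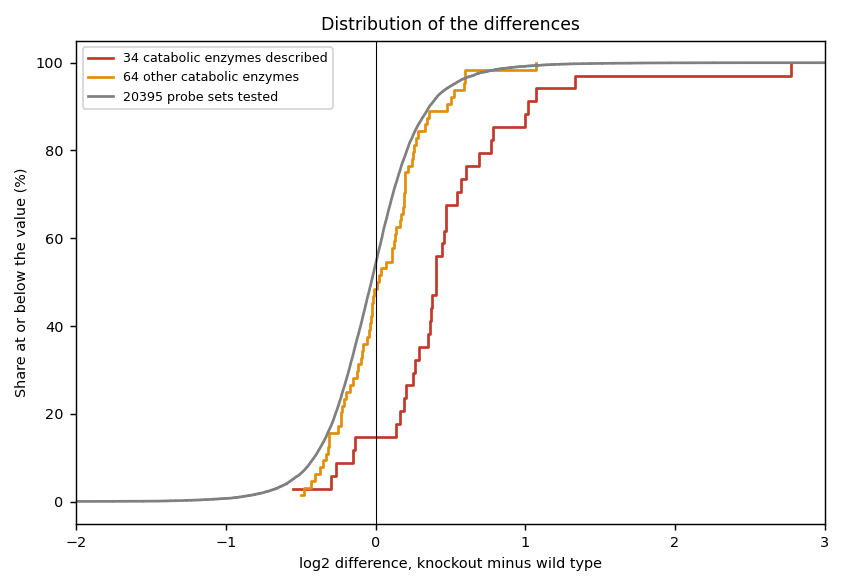
Cumulative share (%) of log2 differences for the 34 enzymes described, 64 other catabolic enzymes and all 20395 probe sets tested, cropped at -2 and 3. The line of the 34 lies to the right of the other lines over most of its length, with medians of 0.40, 0.01 and -0.03. At the low end it starts left of the line of the 64, at -0.56 against -0.50.

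Tyrosine breakdown begins with Tat, which moves the amino group to 2-oxoglutarate. Its signals were 24304, 15255, 15545 and 8501 on knockout arrays 1 to 4, against 4878, 6387, 5868 and 6673 on wild-type arrays 1 to 4. Every knockout array lay above every wild-type array, and knockout 4 was the lowest of the 4. This was a log2 difference of 1.33 ± 0.26 (SE), 2.51 times wild type, at a limma adjusted p of 0.0674. With the hybridisation set as a block, a fit that called 0.505% of all probe sets higher, Tat was the 1 member called (adjusted p = 0.0468). That fit without wild type 4 gave it an adjusted p of 0.0527, and over all alternatives its adjusted p lay between 0.0124, without knockout 4, and 0.242, in the second hybridisation set alone. The enzymes after Tat differed by less. Hpd, which makes homogentisate, had 14832 to 26257 in knockout and 14413 to 18068 in wild type, a log2 difference of 0.25 ± 0.16. Hgd, which opens the ring of homogentisate, had 5601 to 13056 in knockout and 5587 to 7159.7 in wild type (0.40 ± 0.22). Knockout 4 lay within the wild-type range for both, and the other knockout arrays lay above it. Without knockout 1 the log2 differences were 0.10 for Hpd and 0.19 for Hgd. Fah, the last enzyme of the pathway, which yields fumarate and acetoacetate, read 16014, 11366, 10978 and 9295 on knockout arrays 1 to 4, against 8343, 9671, 8969 and 9075 on wild-type arrays 1 to 4. Only knockout 4 overlapped the wild-type range. Its log2 difference was 0.37 ± 0.15 (limma adjusted p = 0.304), and without knockout 1 it was 0.22.

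In the tryptophan pathway, too, the first enzyme had the largest difference. Tdo2, which opens the indole ring of tryptophan, had signals of 13661, 4602, 4064 and 1319 on knockout arrays 1 to 4, against 320.1, 342, 968 and 1306 on wild-type arrays 1 to 4. Knockout 1 was by far the highest, and knockout 4 exceeded wild type 4, the highest wild-type array, by little. Within wild type, arrays 1 and 2 were also lower than arrays 3 and 4. Knockout signals were 6.85 times those in wild type, a log2 difference of 2.78 ± 0.65 (SE) with a limma adjusted p of 0.0992. Leaving out knockout 1 gave 2.22. The formamidase Afmid, next in the pathway, had 1302 to 2268 in knockout and 1228 to 2283 in wild type, with a log2 difference of -0.15 ± 0.23, and -0.29 without knockout 1. Kmo, which hydroxylates kynurenine, had 1444 to 2852 in knockout and 1457 to 1651 in wild type (0.41 ± 0.19; 0.25 without knockout 1), knockout 4 being the lowest of all 8. Haao, which forms the precursor of quinolinate, had 2155 to 2872 in knockout and 1972 to 2651 in wild type (0.16 ± 0.15; 0.11 without knockout 1). Kynu, which cleaves alanine from kynurenines, ordered the knockout arrays the other way, with 941, 1082, 1218 and 1266 on knockout arrays 1 to 4, against 582, 939.5, 989 and 798 on wild-type arrays 1 to 4. Knockout 4 was here the highest array and knockout 1 the lowest of the knockouts. The log2 difference of Kynu was 0.46 ± 0.18 (limma adjusted p = 0.297), and 0.30 without wild type 1.

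**Figure D3:**
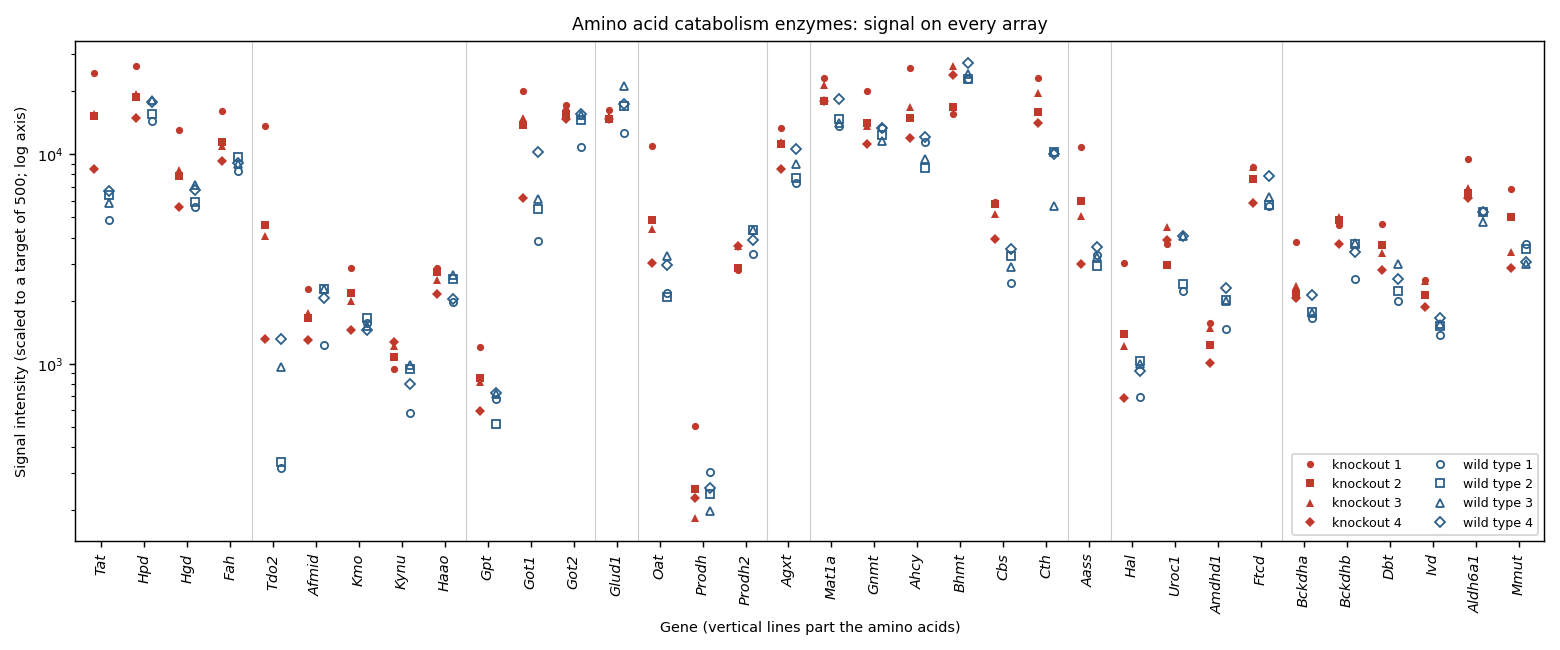
Signal intensity (log axis) of the 34 enzymes on each array, with filled red symbols for knockout, left, and open blue symbols for wild type, right; a symbol's shape gives the array number. The knockout symbols of Tat and Tdo2 lie above all wild-type symbols, and the circle of knockout 1 is the highest knockout symbol for 28 of 34 genes.

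The promoter windows of Tdo2, Tat, Oat and Aass are shown with the motifs of hormone-responsive, liver and general promoter factors. Tdo2 and Tat were the members with the largest differences. Oat and Aass were 2 of the 12 members, Tdo2 included, that shared the order of the knockout arrays of Tdo2. Each window runs from 250 bases before to 50 after a start site, 5′ to 3′ along the gene, as RefSeq's GRCm38.p6 has it. That site is the outer end of the annotated gene for Tdo2, Oat and Aass, and for Tat it lies 4358 bases inside the gene's annotated span, which begins at position 109986078. They lie at chr3:81975679-81975978 (minus strand), chr8:109990186-109990485 (plus strand), chr7:132576349-132576648 (minus strand) and chr6:23132937-23133236 (minus strand). Capitals mark any match to the motifs searched.
Tdo2: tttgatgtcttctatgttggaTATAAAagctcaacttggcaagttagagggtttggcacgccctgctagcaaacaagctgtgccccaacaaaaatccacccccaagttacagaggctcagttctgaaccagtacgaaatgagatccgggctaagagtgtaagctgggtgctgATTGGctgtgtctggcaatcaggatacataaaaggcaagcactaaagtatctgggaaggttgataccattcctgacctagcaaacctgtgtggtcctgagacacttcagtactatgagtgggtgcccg
Tat: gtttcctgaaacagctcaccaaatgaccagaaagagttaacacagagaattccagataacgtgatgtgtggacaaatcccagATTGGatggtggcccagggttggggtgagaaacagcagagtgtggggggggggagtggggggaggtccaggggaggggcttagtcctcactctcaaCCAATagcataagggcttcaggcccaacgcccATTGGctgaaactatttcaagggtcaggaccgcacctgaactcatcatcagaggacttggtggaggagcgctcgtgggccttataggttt
Oat: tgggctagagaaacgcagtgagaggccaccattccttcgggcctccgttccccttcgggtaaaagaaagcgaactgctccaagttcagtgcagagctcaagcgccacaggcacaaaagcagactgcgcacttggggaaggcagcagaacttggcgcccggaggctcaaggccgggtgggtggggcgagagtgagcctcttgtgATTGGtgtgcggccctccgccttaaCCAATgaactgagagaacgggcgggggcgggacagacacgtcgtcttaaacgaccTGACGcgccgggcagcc
Aass: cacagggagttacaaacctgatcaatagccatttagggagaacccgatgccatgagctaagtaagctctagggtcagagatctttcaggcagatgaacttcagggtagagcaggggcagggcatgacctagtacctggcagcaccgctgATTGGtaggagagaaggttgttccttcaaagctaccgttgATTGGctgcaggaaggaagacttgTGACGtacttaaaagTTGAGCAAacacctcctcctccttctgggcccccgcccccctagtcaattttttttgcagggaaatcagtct
The motifs were AGAACA, the hexamer bound by the glucocorticoid receptor, TGACG, the core of the cAMP response element, TTGCNNAA for C/EBP factors, GTTAAT for HNF1, and CCAAT, on both strands, and TATAAA on the strand shown. Matches of C/EBP, TGACG and CCAAT did not overlap each other in these windows. Counting from 1 at the 5′ end of a window, TGACG stood at position 284 in Oat and at 214 in Aass, and a C/EBP match at 229 in Aass. Tdo2 held TATAAA at position 22 and a CCAAT match at 173. Tat held CCAAT matches at 83, 179 and 211, Oat at 204 and 229, and Aass at 150 and 190. Of the 30 windows found for 28 members, 5 (16.7%) held AGAACA, beside 19.0% of all 32851 windows of this length. TGACG was in 3 (10.0%, beside 20.8%), those of Aass, Oat and Ftcd. C/EBP was in 4 (13.3%, beside 10.8%), GTTAAT in 5 (16.7%, beside 7.10%) and TATAAA in 2 (6.67%, beside 8.32%). CCAAT, added to the search after the windows had been read, was in 18 (60.0%, beside 37.4%). AGAACA was not in the windows of Tat or Tdo2. These matches describe the letters of the windows and were not tested.

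Methionine is turned into S-adenosylmethionine, then homocysteine, and homocysteine either returns to methionine or leaves as cysteine. The enzymes of the route out to cysteine had the largest log2 differences of the group. Cbs, which joins homocysteine to serine, read 5939, 5765, 5184 and 3944 on knockout arrays 1 to 4, against 2440.1, 3279, 2903 and 3509 on wild-type arrays 1 to 4. The groups did not overlap. Cbs thus had a log2 difference of 0.77 ± 0.17 (SE), 1.71 times wild type, and a limma adjusted p of 0.0839. Cth, which splits the product of Cbs to release cysteine, read 23159, 15814, 19629.9 and 14071 on knockout arrays 1 to 4, against 10284, 10239, 5637 and 10067 on wild-type arrays 1 to 4. Again every knockout array lay above every wild-type array, and wild type 3 was far below the other wild-type arrays. The log2 difference of Cth was 1.02 ± 0.22 (SE), 2.03 times the wild-type signal (limma adjusted p = 0.0826). In the first hybridisation set the log2 difference of Cth was 0.90. In the second, which holds the low wild type 3, it was 1.14.

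Ahcy, which cleaves S-adenosylhomocysteine to homocysteine, had 25862, 14930.2, 16726 and 11932 on knockout arrays 1 to 4, against 11407, 8631, 9473 and 12052 on wild-type arrays 1 to 4. Knockout 4 fell just below wild type 4, and the other knockout arrays lay above all wild-type arrays. This was a log2 difference of 0.69 ± 0.21 (SE), 1.62 times wild type, at a limma adjusted p of 0.181. Mat1a, the liver enzyme that makes S-adenosylmethionine, had 23130.2, 17999.6, 21425 and 17931 on knockout arrays 1 to 4, against 13598, 14772, 14120.5 and 18270.3 on wild-type arrays 1 to 4. Wild type 4 overlapped the 2 lowest knockout arrays. For Mat1a the log2 difference was 0.41 ± 0.12 (limma adjusted p = 0.182). Gnmt, which uses S-adenosylmethionine to methylate glycine, had 11159 to 20056 in knockout and 11605 to 13375 in wild type (0.19 ± 0.16), and without knockout 1 its log2 difference was 0.03. Bhmt, which returns homocysteine to methionine with a methyl group from betaine, lay on the other side of 0. Its signals were 15566, 16738, 26191 and 23904 on knockout arrays 1 to 4, against 22846, 22948, 24129.6 and 27070.0 on wild-type arrays 1 to 4, so that knockout 1 and 2 were the lowest arrays and knockout 3 and 4 lay within wild type. The log2 difference of Bhmt was -0.27 ± 0.16 (limma adjusted p = 0.486), and -0.14 without knockout 1.

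All 6 members of branched-chain amino acid and propionate breakdown had log2 differences above 0, between 0.37 and 0.57. Of the 6, 5 reached an unadjusted p under 0.05, beside 7.12% of all probe sets. The 17 further enzymes tested of this breakdown, outside the list of 34, had a median of 0.007, with 9 above 0. Bckdha, Bckdhb and Dbt encode the decarboxylase subunits and the transacylase core of the branched-chain keto acid dehydrogenase, the committed step. Dbt read 4655, 3696, 3394 and 2804 on knockout arrays 1 to 4, against 1988, 2217, 3002 and 2545 on wild-type arrays 1 to 4. Knockout 4 alone fell within the wild-type range. The log2 difference of Dbt was 0.57 ± 0.18 (limma adjusted p = 0.197). Bckdhb read 4615, 4837, 4987 and 3733 on knockout arrays 1 to 4, against 2552, 3713, 3776 and 3402 on wild-type arrays 1 to 4, with knockout 4 just below wild type 3 (0.44 ± 0.16; adjusted p = 0.238). For Bckdha the signals were 3795, 2164, 2346 and 2058 on knockout arrays 1 to 4, against 1649.8, 1766, 1742 and 2122 on wild-type arrays 1 to 4. Knockout 1 was far above the rest (0.47 ± 0.20; adjusted p = 0.314), and without it the log2 difference was 0.27.

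Ivd, which oxidises isovaleryl-CoA from leucine, read 2499.5, 2119, 2472 and 1859 on knockout arrays 1 to 4, against 1374, 1518, 1539.9 and 1662 on wild-type arrays 1 to 4. The groups did not overlap. Knockout signals were 1.46 times those in wild type, a log2 difference of 0.54 ± 0.14 (SE) with a limma adjusted p of 0.122. Aldh6a1, the methylmalonate semialdehyde dehydrogenase of valine breakdown, read 9465, 6562, 6883 and 6191 on knockout arrays 1 to 4, against 5368, 5320.4, 4742 and 5279.9 on wild-type arrays 1 to 4. These groups did not overlap either, and the log2 difference was 0.47 ± 0.14 (limma adjusted p = 0.179). Mmut (older symbol Mut), the mutase that makes succinyl-CoA from propionate carbon, had 2872 to 6820.2 in knockout and 2995 to 3722 in wild type. Its log2 difference was 0.37 ± 0.24, and 0.15 without knockout 1. Knockout 4 was the lowest array of all 8.

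Among the aminotransferases of alanine and aspartate, the cytosolic Got1 stood apart from the mitochondrial Got2. Got1, which exchanges amino groups between aspartate and glutamate, read 20113, 13815, 14856 and 6168 on knockout arrays 1 to 4, against 3861, 5452, 6091 and 10192 on wild-type arrays 1 to 4. Knockout 1 to 3 lay above all wild-type arrays, and knockout 4 was below wild type 4. Got1 thus had a log2 difference of 1.07 ± 0.36 (SE), 2.10 times wild type, and a limma adjusted p of 0.215. Got2, its mitochondrial counterpart, had 14729 to 17143 in knockout and 10783 to 15501 in wild type (0.21 ± 0.13; 0.083 without wild type 1). Gpt, the alanine aminotransferase, had 596 to 1201 in knockout and 518 to 728 in wild type (0.35 ± 0.21; 0.18 without knockout 1), with knockout 1 the highest array and knockout 4 within wild type. Gpt was read from a probe set of the class that can match several related transcripts, as were Cbs and Uroc1. Glud1, which releases ammonia from glutamate in the mitochondrion, had 14709.9 to 16175 in knockout and 12679.7 to 21095 in wild type, a log2 difference of -0.14 ± 0.14. The 4 knockout arrays of Glud1 lay inside the wild-type range.

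Ornithine, glyoxylate and lysine are each represented by 1 enzyme with an unadjusted p under 0.05. Oat, which moves the amino group of ornithine and so links it to proline and glutamate, read 10895, 4830.4, 4396 and 3022 on knockout arrays 1 to 4, against 2169, 2084, 3249 and 2963 on wild-type arrays 1 to 4. Knockout 1 was far above the others, and knockout 4 was within wild type. The log2 difference of Oat was 0.997 ± 0.33 (SE), 2.00 times the wild-type signal (limma adjusted p = 0.21). Without knockout 1 the log2 difference of Oat was 0.64. The proline dehydrogenase Prodh had 184 to 507 in knockout and 199 to 304 in wild type (0.13 ± 0.29), a value that changed sign without knockout 1 (-0.15). Prodh2, which acts on hydroxyproline, had 2812 to 3656 in knockout and 3353 to 4343 in wild type and a log2 difference of -0.30 ± 0.15.

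Agxt, the peroxisomal enzyme that turns glyoxylate into glycine with the amino group of alanine, read 13275, 11154, 11472 and 8536 on knockout arrays 1 to 4, against 7261, 7717, 8984 and 10529.9 on wild-type arrays 1 to 4. Knockout 4 lay within the wild-type range (0.36 ± 0.16; limma adjusted p = 0.333). Aass, which carries out the first 2 steps of lysine breakdown, read 10869, 6008, 5092 and 3006 on knockout arrays 1 to 4, against 3291, 2929, 3239 and 3605 on wild-type arrays 1 to 4. The 3 higher knockout arrays lay above all wild-type arrays, whose own range was narrow, and knockout 4 was near the lowest of them. The log2 difference of Aass was 0.79 ± 0.31 (limma adjusted p = 0.282), and 0.47 without knockout 1.

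Histidine is broken down in 4 steps, and its enzymes lay on both sides of 0. Hal, the ammonia lyase that begins the pathway, had 689.8 to 3036 in knockout and 695 to 1029 in wild type (0.60 ± 0.36). Knockout 1 stood far above the other arrays, and knockout 4 was the lowest array of all. Without knockout 1 the log2 difference of Hal was 0.22. Uroc1, the urocanate hydratase, had 2964 to 4482 in knockout and 2214 to 4062 in wild type (0.29 ± 0.22; 0.13 without wild type 1). Amdhd1, the imidazolone propionase that follows, was the 1 member lower in the knockout at an unadjusted p under 0.05. Its signals were 1563, 1225, 1481 and 1009 on knockout arrays 1 to 4, against 1473, 2015, 1989 and 2295 on wild-type arrays 1 to 4. Knockout 2 and 4 lay below all wild-type arrays, and wild type 1 overlapped knockout 1 and 3. This was a log2 difference of -0.56 ± 0.18 (SE), 0.681 times wild type, at a limma adjusted p of 0.209. Without knockout 1 its log2 difference was -0.64. Ftcd, which passes the formimino group to tetrahydrofolate, had 5816 to 8679 in knockout and 5632 to 7907 in wild type (0.26 ± 0.16).

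Of 18 further probe sets, which the choice of the brightest one left aside, 11 could be tested, for 10 of the genes. All 11 had the sign of the chosen probe set. An unadjusted p under 0.05 was reached by 5, beside 7.12% higher and 7.32% lower among all probe sets. They read the same genes on the same arrays, so they do not stand as separate replicates. The other tested probe set of Tdo2 read 4363, 1091, 849 and 269 on knockout arrays 1 to 4, against 274, 327, 246 and 311 on wild-type arrays 1 to 4, a log2 difference of 1.78 ± 0.62. The groups overlapped there. They also overlapped on a further, untested probe set of Tdo2, with knockout 4 at 181 and wild type 4 at 198. The other one of Ivd stood at 0.87 ± 0.18 (limma adjusted p = 0.0816), above the 0.54 of the brighter one. For Cbs, Gpt and Amdhd1 the other probe sets gave 0.60, 0.67 and -0.47.

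For most enzymes knockout 1 was the highest and knockout 4 the lowest knockout array. Both held for 27 of the 34, of which 12, among them Tdo2, had knockout 2 above knockout 3, and 15, among them Tat, the reverse. Relative to the wild-type mean, the median log2 difference of the 34 was 0.84 on knockout 1, 0.36 on knockout 2, 0.42 on knockout 3 and 0.02 on knockout 4. Over all probe sets tested these medians were -0.06, -0.03, 0.01 and 0.01. Knockout 1 had the highest knockout signal for 28 of the 34 (82.4%), beside 30.3% of all probe sets, and knockout 4 the lowest for 29 (85.3%), beside 24.8%. On knockout 4, 18 members lay above the wild-type mean and 16 below it. The wild-type arrays lay closer together, with medians of -0.19, -0.02, 0.03 and 0.14 on arrays 1 to 4.

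**Figure D4:**
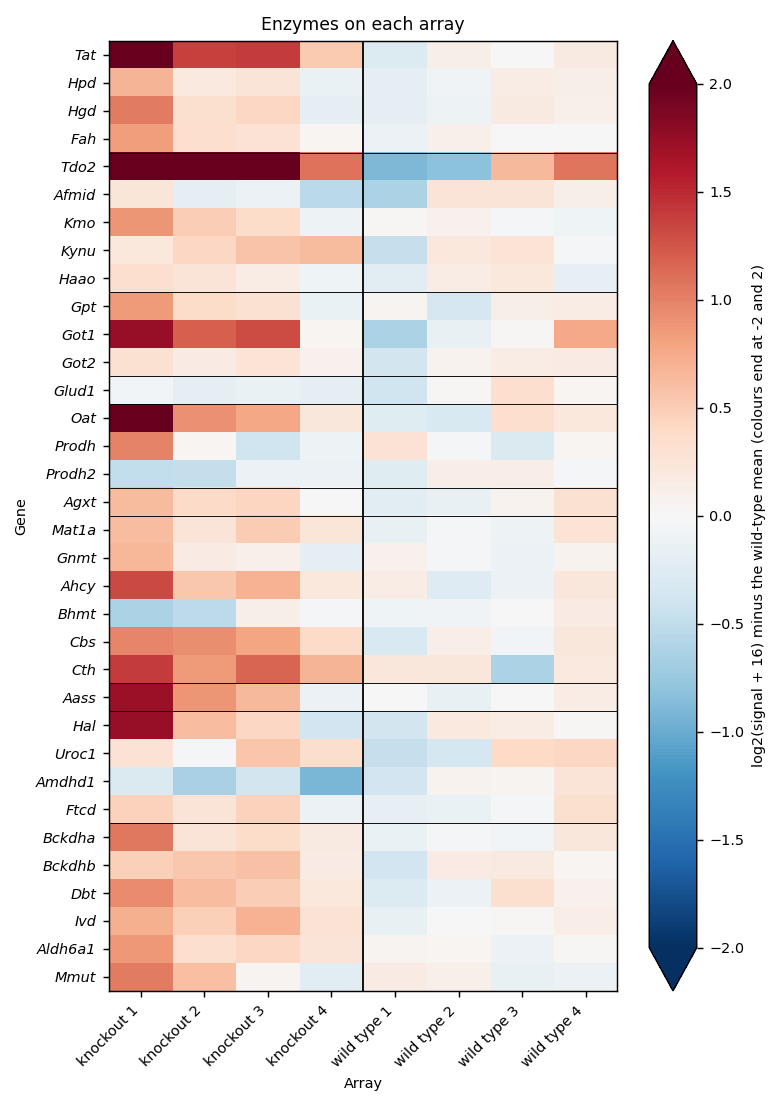
Colour gives log2(signal + 16) minus the mean of the 4 wild-type arrays for each enzyme (rows, by amino acid) on each array (columns, knockout left); colours end at -2 and 2. The column of knockout 1 is the deepest red, with a median of 0.84, and that of knockout 4 is pale, with a median of 0.02.

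Within the first hybridisation set, 31 of the 34 had a log2 difference above 0, at a median of 0.62. In the second set 23 did, at a median of 0.11. Of all probe sets, 45.2% lay above 0 in the first set and 49.9% in the second. Unadjusted p-values under 0.05 numbered 23 higher and 1 lower in the first set, where 7.33% and 8.45% of all probe sets had them. The second set gave 6 higher and 3 lower, where 7.04% and 7.33% of all probe sets had them. Tdo2 was the 1 member that limma called within the first set, which called 0.118% of all probe sets higher and 0.0294% lower. The log2 differences of Tdo2 were 4.52 and 1.03 in the sets, and those of Tat 1.78 and 0.88. Got1 had 1.86 and 0.28, Oat 1.76 and 0.23, and Aass 1.38 and 0.19. After Cth, Tdo2 and Tat, the members highest above 0 in the second set were Cbs at 0.50, Kynu at 0.48, Ivd at 0.42 and Ahcy at 0.40. Farthest below 0 in the second set were Amdhd1, with -0.31 in the first and -0.80 in the second, and Afmid, with 0.21 and -0.52. The interaction of genotype with the set, tested by limma, was called for 0 of the 34 (smallest adjusted p = 0.484) and for 0.0049% of all probe sets in each direction. Its unadjusted p was under 0.05 for 12 members, 11 of them with the higher log2 difference in the first set and 1, Bhmt, in the second, beside 3.96% and 5.96% of all probe sets. Bhmt lay farther from 0 in the first set, at -0.50 against -0.03 in the second. With the set as a block, 18 members were higher and 3 lower at an unadjusted p under 0.05, beside 8.70% and 9.64%; Tat alone was called.

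**Figure D5:**
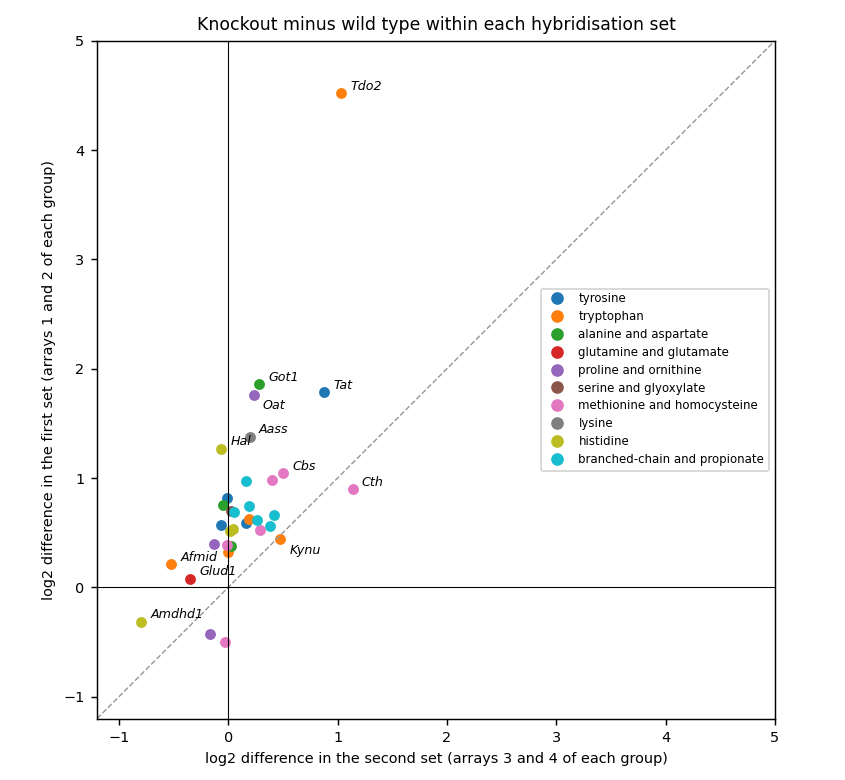
Log2 difference, knockout minus wild type, of each enzyme in the first hybridisation set (vertical axis, arrays 1 and 2) against the second (horizontal axis, arrays 3 and 4), coloured by amino acid, with the line of equal values dashed. Most points lie above the line, Tdo2 at 4.52 and 1.03, and Cth lies below it at 0.90 and 1.14. The second set holds wild type 3, on which Cth was low.

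Some signs of RNA quality and the markers of some cell types also set knockout 1 apart. The pyruvate carboxylase ratio was highest on knockout 1 and 2, as given above, and the actin ratio was 1.74 on knockout 1 and 1.21 to 1.32 elsewhere. The same ratios of Gapdh and of the transferrin receptor did not set knockout 1 apart. That of Gapdh was 0.896 on knockout 1 and 0.886 on knockout 2 and wild type 1. That of the transferrin receptor was 6.55 on knockout 1, 6.72 on knockout 2 and 6.53 on wild type 2. With the pyruvate carboxylase ratio as a covariate the median of the 34 was 0.31, and with the actin ratio 0.30. All 10 measured hepatocyte markers lay above 0, at a median of 0.09, with a summed signal of 219788 to 282745 in knockout and 200570 to 252214 in wild type. Knockout 1 had the highest sum. This list's median was 0.29 over the first set and -0.11 over the second, where the 34 enzymes had 0.62 and 0.11. The dimmest of the 10, Hnf4a, differed by 0.73 ± 0.27 (limma adjusted p = 0.251), with 0.97 and 0.50 in the sets. The other hepatocyte markers lay between 0.02 and 0.30, Apob the highest of them. Apart from Hnf4a and Apob, these markers read 19537 to 38679, near the top of the scale. The highest signal of any probe set was 29266 to 38679 on the arrays. How far such bright markers can show a difference was not tested. All 9 measured cell division genes lay below 0, at a median of -0.58, and their sum was 28068 on knockout 1 and 39837 on knockout 2, 51385 to 61977 on the other knockouts and 52410 to 69912 in wild type. Of the erythroid markers, 1 of 9 tested lay above 0 (median -0.10; sums of 45711 to 69434 and 52129 to 65000 in knockout and wild type). Relative to the wild-type mean, their median was -0.69, -0.35, 0.05 and 0.42 on knockout arrays 1 to 4. It was -0.55 over the first set and 0.25 over the second. Macrophage markers, 6 of 10 above 0, were highest on knockout 1 (27751 to 45220 against 27090 to 36036). Limma called 0 of the 72 markers tested. Granulocyte markers (2 of 10 above 0; median -0.22) summed to 67778 to 93337 in knockout and 79748 to 99211 in wild type. B lymphoid markers (0 of 5 tested above 0; -0.43) summed to 890.3 to 2619 and 1560 to 3578, endothelial markers (4 of 8; 0.05) to 9480 to 15342 and 9167 to 12480.8, and stellate and fibroblast markers (2 of 7; -0.19) to 13547 to 16681 and 15218 to 22505. Within that list the collagen gene Col3a1 read 1549, 1403, 2813 and 2534 on knockout arrays 1 to 4, against 2679, 3497, 6534 and 4488 on wild-type arrays 1 to 4 (log2 difference -1.03 ± 0.30). It was the 1 marker called with the hybridisation set as a block (limma adjusted p = 0.0235), a fit that called 0.397% of all probe sets lower. Cholangiocyte markers (1 of 2; -0.06) summed to 559 to 1349 and 456 to 1763. Markers of neighbouring tissues were dim: skeletal muscle summed to 230.4 to 467 in knockout and 289 to 462 in wild type with 0 genes tested, kidney to 519.8 to 535 and 569 to 887 with 1 tested (-0.33), and acinar pancreas to 806 to 2047 and 792 to 1198 with 1 tested (0.34). The part of these shifts in the differences of the enzymes was not tested.

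Other enzymes of amino acid breakdown lay evenly on both sides of 0. Of 80 further enzymes listed, 72 had a named probe set and 64 were tested. Their median log2 difference was 0.01, with 33 above 0 and 31 below. By amino acid it was -0.13 for methionine and cysteine (3 of 10 above 0) and 0.007 for branched-chain and propionate (9 of 17). It was -0.21 for alanine and aspartate (1 of 5) and -0.09 for proline and ornithine (2 of 4). Serine, glycine and threonine had -0.04 (3 of 9), and phenylalanine and tyrosine 0.05 (4 of 6). Lysine had 0.14 (3 of 5), histidine 0.18 (2 of 2), tryptophan 0.23 (4 of 4), and glutamine and glutamate 0.83 (2 of 2). Limma called 0 of the 64, with 9 higher and 4 lower at an unadjusted p under 0.05, beside the same 7.12% and 7.32%. The members of the list of 34 were chosen with earlier results of these data known, so the contrast between the lists is a description. By smallest p, Oplah, the oxoprolinase that returns glutamate from oxoproline, came first with 1009, 715, 654 and 373 on knockout arrays 1 to 4, against 331, 252, 282 and 348 on wild-type arrays 1 to 4 (1.07 ± 0.26; limma adjusted p = 0.107). All its knockout arrays lay above all wild-type arrays. The same held for Aadat, an aminotransferase of the tryptophan and lysine routes, at 0.52 ± 0.13 (adjusted p = 0.113), and for the lysine pathway dehydrogenase Aldh7a1 at 0.60 ± 0.18. On the lower side stood Gcsh, of the glycine cleavage system, at -0.50 ± 0.18, and Ddc, which decarboxylates aromatic amino acids, at -0.33 ± 0.12. Bckdk, the kinase that switches off the branched-chain dehydrogenase, read 387, 532, 437 and 522 on knockout arrays 1 to 4, against 633, 621, 849 and 547 on wild-type arrays 1 to 4. Every knockout array of Bckdk lay below every wild-type array, opposite to Ivd, with a log2 difference of -0.48 ± 0.17 (limma adjusted p = 0.243).

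Genes known to regulate these enzymes, or to respond to the same hormones, were also read. Of 20 measured, 16 lay above 0, at a median of 0.31, and limma called 0, with 8 higher and 0 lower at an unadjusted p under 0.05, beside 7.12% and 7.32% of all probe sets. Cebpd, a C/EBP factor induced in stress, read 3134, 1502, 1482 and 910.1 on knockout arrays 1 to 4, against 601, 443, 438 and 631 on wild-type arrays 1 to 4. Klf15, a transcription factor that promotes amino acid breakdown in liver, read 3599, 2204, 2450.5 and 1557 on knockout arrays 1 to 4, against 1242, 548, 811 and 1176 on wild-type arrays 1 to 4. The groups did not overlap for either. Their log2 differences were 1.58 ± 0.31 and 1.37 ± 0.30 (limma adjusted p = 0.0712 and 0.0839), and Cebpd was called with the hybridisation set as a block (adjusted p = 0.0437). Crem, a cAMP-responsive factor, stood at 0.96 ± 0.24 and the coactivator Ppargc1a at 1.42 ± 0.38. The clock and glucocorticoid-responsive gene Per1 stood at 1.14 ± 0.33, and the glucocorticoid target Tsc22d3 at 0.61 ± 0.22. The groups overlapped for Ppargc1a, Per1 and Tsc22d3. Those named so far had the smallest p of the list. Fkbp5 stood at 0.19 ± 0.16. Below 0 lay the glucagon receptor Gcgr at -0.31 ± 0.28, the glucocorticoid receptor Nr3c1 at -0.10 ± 0.12, Ppara at -0.19 ± 0.12 and Creb1 at -0.06 ± 0.18. The regulators had a median of 0.65 over the first set and 0.13 over the second.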

How the data were processed

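The authors made the deposited intensity values, per the labels, with Affymetrix GCOS 1.2 at its defaults, with all probe sets scaled to a target of 500. That scaling was kept. The table holds 1 column for each of 8 arrays and no detection calls. Titles gave the groups and replicate numbers. Gene names are those of GEO's platform annotation, brought up to date by Entrez identifier through a RefSeq gene table; promoter sequences are RefSeq's. Log2(signal + 16) was compared with limma 3.58.1 (R 4.3.3; eBayes with a trend on intensity; two-sided tests) over the 20395 probe sets that reached 200 on 4 or more arrays, with Benjamini-Hochberg adjustment over all of them. The fit was tested on simulated data. The members, lists, tests and naming rule were chosen with earlier results of these data known. Signals on every array are given for members with an unadjusted p under 0.05 or groups that do not overlap. Other members are given by range, and other enzymes and regulators by smallest p, up to 6 a list. Fkbp5 and the regulators below 0 are given as well. The labels do not say that replicates came from separate litters, so p-values measure the spread between these samples. Their number limits the precision. Alternatives were other pseudocounts, signal minimums, scalings, limma settings, probe set choices, blocks, covariates and left-out arrays. Python 3.11.15 wrote the tables and figures. The targeted gene was not analysed here.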

Additional observations from a re-analysis of the deposited data

Results flagged for a closer look

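In 3 of the 68 groups of 4 arrays, 1 array lay far from the other 3, where chance alone flags about 1 in 20 groups. The gap to the nearest array, as a share of the group's range on the log2 scale, was 0.965 for Cth in wild type, where array 3 was low at 5637. It was 0.867 for Aldh6a1 in wild type, where array 3 was low at 4742. For Afmid in wild type it was 0.842, with array 1 low at 1228. None of the 34 enzymes passed the test of a difference between the hybridisation sets (limma, smallest adjusted p = 0.484), and 12 had an unadjusted p under 0.05.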

How the results depend on the processing

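Of the 34 enzymes, 26 kept the sign of their difference under all 28 alternatives. Some of the 28 leave the log2 difference itself as it was, so they could not change a sign. These were the blocks over all 8 arrays, the limma settings, the other signal minimums or no filter, and the looser threshold. Prodh lay between -0.15 and 0.31 with 1 array left out, its sign changing without knockout 1, and was below 0 also without both knockout 1 and wild type 4 (-0.14; this alternative was chosen after seeing the data), with the actin or the pyruvate carboxylase ratio as a covariate (-0.10 and -0.11) and in the second hybridisation set (-0.13). There Hpd (-0.071), Hgd (-0.015), Gpt (-0.048), Gnmt (-0.012) and Hal (-0.065) changed sign too, and in the first set Afmid (0.21) and Glud1 (0.076) did. The causes were not tested. The median of the 34 lay between 0.11 (second set) and 0.62 (first set), and between 0.26 and 0.52 with 1 array left out. No alternative called a member lower. The number called higher was 1 with the hybridisation set as a block (Tat), with that block and without wild type 4 (Cth), in the first set (Tdo2), with quantile normalization, with a signal minimum of 400 and with the actin covariate (each Tat), and 4 at an adjusted p under 0.10 (Tat, Tdo2, Cbs and Cth). Leaving out 1 array gave 0 to 5, the 5 (Tat, Tdo2, Got1, Cbs and Cth) without knockout 4. At an unadjusted p under 0.05, 12 to 23 members were higher and 1 to 3 lower with 1 array left out. The shares of all probe sets were 5.69% and 5.65% without knockout 1, and 6.55% and 6.37% without wild type 4. They were not counted for the other left-out arrays, so the range is no result about the members. There were 6 higher and 3 lower in the second set (beside 7.04% and 7.33%) and 3 lower with the hybridisation set as a block (beside 9.64%). There were 2 lower with that block and without wild type 4, with quantile normalization and with the replicate block, fits whose shares were not counted. With the dimmest probe set of a gene 0 were lower. Over all probe sets the calls numbered 61 as reported, 2 to 334 with 1 array left out (334 without knockout 4, 65 without wild type 1, 22 without knockout 1, 6 without wild type 4, and 2 without knockout 2, knockout 3, wild type 2 or wild type 3) and 56 with the replicate block. They numbered 184 with the hybridisation set as a block, 154 with that block and without wild type 4, 30 and 2 in the first and the second set alone, and 8 without both knockout 1 and wild type 4. Without a filter there were 21, with no intensity trend 18, with signal minimums of 100 and 400 there were 22 and 111, with the actin covariate 103, and at an adjusted p under 0.10 there were 304. With the replicate block 16 members were higher at an unadjusted p under 0.05, a fit whose share of all probe sets was not counted. Deviations of same-numbered arrays correlated at 0.22, 0.40, 0.34 and 0.05 for numbers 1 to 4, and 3 of 4 knockout arrays correlated best with the wild-type array of their own number. The numbers were not taken as pairs because number 4 fell below the 0.1 asked of every number.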
